A study of Mus musculus with 6 samples.

Results

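Sall genes encode zinc finger transcription factors related to spalt of Drosophila. The mouse family has 4 genes, Sall1, Sall2, Sall3 and Sall4, which were taken by name from a deposited gene table of motor neurons (MNs) made from control and spinal muscular atrophy (SMA) mouse embryonic stem cells (mESCs). They are 4 of the 34433 gene symbols in the table, and 4 of 4 passed the filter on low values (1 FPKM or more in one genotype or the other, and a value above 0 in each). FPKM is the number of sequenced fragments per kilobase of transcript, scaled to the mapped fragments of the library, so it can be compared between genes as well as between genotypes.

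Sall proteins carry pairs of C2H2 zinc fingers spread along the protein and a short motif at the amino end that recruits the NuRD complex, which removes acetyl groups from histones and slides nucleosomes. Sall4 is the member of embryonic stem cells, where it binds near Oct4 and Nanog sites and helps to keep the cells undifferentiated. Sall1, Sall2 and Sall3 are known from the developing kidney, limbs, eye and nervous system, the spinal cord included, and Sall1 is also made in embryonic stem cells.

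RNA was sequenced from 6 samples, 3 of each genotype. The control line, Hb9 (control MNs), is labelled wildtype and is described in the study's methods as homozygous for the human SMN2 transgene with both mouse Smn copies intact. The SMA line, A2 (SMA MNs), has the genotype SMN2+/+;mSmn-/-, so it carries the same human transgene without functional mouse Smn. Both lines are on the FVB/N background and hold an eGFP reporter driven by the Hb9 (Mnx1) promoter. Embryoid bodies of each line received 1 µM retinoic acid and 1 µM of a Smoothened agonist for 5 days, and cells positive for GFP were collected by FACS. Each genotype is a single mESC line, so an effect of Smn and any other difference between the lines cannot be told apart. Nothing states that the samples of a line came from separate cultures. The table gives 1 pooled FPKM value per genotype, called here the authors' pooled value, so the differences given here have no replicate check and no p-value. The reads behind each value are unknown.

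The targeted gene was examined first. Smn1 (chr13:100894807-100907645, NCBI m37) had 137 FPKM in control MNs and 5.26 FPKM in SMA MNs, a level 25.9-fold lower in the SMA cells and in the direction of the label. Reads from the human transgene were not separated from those of the mouse gene. Mnx1, the gene whose promoter drives the sorted reporter, had 41.2 FPKM in control MNs and 44.2 FPKM in SMA MNs, a log2 ratio of 0.10. The levels of Mnx1 were thus close to each other in the sorted cells.

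Most of the other MN markers were lower in SMA MNs. Of 20 listed markers, 17 passed the filter on low values, and 15 of these (88.2%) were at least 2-fold lower in SMA MNs, beside 22.4% of all genes, and 0 at least 2-fold higher, beside 6.83%, with a median log2 ratio of -4.13. Their summed level was 1658 FPKM in control MNs and 254 FPKM in SMA MNs. The most abundant in control MNs was Nefm, a neurofilament subunit, at 359 and 15.2 FPKM. Its partner subunit Nefl had 297 and 17.0 FPKM, and Stmn2, a tubulin-binding protein of growing axons and the most abundant marker in SMA MNs, had 242 and 78.0 FPKM. Lhx3, a LIM homeodomain factor that specifies MNs, had the lowest ratio of the list, with 27.6 FPKM in control MNs and 0.348 FPKM in SMA MNs (log2 ratio -6.31), and Mnx1 had the highest. Besides Mnx1, the marker within 2-fold was Foxp1, chosen after its values were seen and on a row shared with other symbols, with 47.1 and 34.9 FPKM (-0.43). Chat, which makes acetylcholine, and Isl1, the LIM factor that acts with Lhx3, are defining markers that were chosen after their values were seen. Chat had 15.5 and 0.344 FPKM, and Isl1 had 108 and 5.95 FPKM. Slc5a7, the choline transporter, did not reach 1 FPKM in either genotype, and Slc18a3 and Tubb3 were not analysed here. The Hb9 cells therefore carried the markers of their label, whereas the A2 cells carried Mnx1, Stmn2 and Foxp1 among others, with little Lhx3 or Chat. In such bulk samples, fewer cells of a type and less RNA per cell cannot be told apart.

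All genes of the table that passed the filter served as background, 14926 rows with at least 1 symbol. The log2 ratio of A2 SMA over control MNs had a median of -0.29 (quartiles -0.89 and 0.19), and 65.9% of the genes were lower in SMA MNs. At least 2-fold higher levels in SMA MNs were found for 6.83% of the genes and at least 2-fold lower levels for 22.4%, so 23.4% of the genes past 2-fold were higher. When the values were scaled so that the median gene had a log2 ratio of 0, that share was 38.8%. Of the 4 Sall genes, 1 was at least 2-fold higher (Sall4), against 6.83% of all genes, and 2 were at least 2-fold lower (Sall2 and Sall3), against 22.4%. Sall1 lay within 2-fold. The directions of these 4 genes, and which of them were past 2-fold, were the same under every scaling tried.

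Sall4, the embryonic stem cell member, lies at chr2:168573832-168593608. Its level was 63.8 FPKM in control MNs and 159.9 FPKM in SMA MNs. This was 2.50-fold higher in the SMA cells, a log2 ratio of 1.32, or 1.61 above the median gene. Only 664 genes of the background (4.45%) had a higher ratio. By level, Sall4 stood at percentile 83.2 of the background in control MNs and at percentile 96.4 in SMA MNs. The gene was therefore well expressed in the control cells too, and among the most abundant transcripts of the SMA cells. A predicted gene, Gm14261, chosen here because it shares the locus, had 0.550 and 0.135 FPKM.

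Sall1, whose mutation in people causes Townes-Brocks syndrome with defects of limb, ear, anus and kidney, lies at chr8:91551145-91594741. It had 60.7 FPKM in control MNs and 38.0 FPKM in SMA MNs. The level was 1.60-fold lower in the SMA cells, a log2 ratio of -0.68, or -0.39 relative to the median gene. Since 31.9% of the background genes had a lower ratio, Sall1 did not stand apart from the shift of most genes. Its place among levels was percentile 82.2 in control MNs and 75.9 in SMA MNs, high in both. The same locus holds 7 rows of the table, of which a second one also carries the symbol Sall1, with 6.63 and 4.65 FPKM (log2 ratio -0.51). The 5 rows without a symbol ranged from 1.61 to 5.22 FPKM in control MNs and from 0.182 to 5.75 FPKM in SMA MNs. The table gives no strand, so transcripts of opposite strands at this locus cannot be told apart here.

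Sall2, the most divergent member in sequence and a regulator of cell cycle arrest and of neural tube and eye closure, lies at chr14:52930847-52948437. The authors' pooled values were 29.6 FPKM in control MNs and 6.14 FPKM in SMA MNs. Sall2 was thus 4.81-fold lower in the SMA cells, with the lowest log2 ratio of the family (-2.27, or -1.98 relative to the median gene). In the background, 1074 genes had a lower ratio. By level it stood at percentile 64.0 in control MNs and at percentile 34.7 in SMA MNs, the widest gap in rank among the 4 genes.

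Sall3, needed in mice for cranial nerves and the palate, lies at chr18:81160380-81183346 and was the least abundant member in both genotypes. It had 4.53 FPKM in control MNs and 1.16 FPKM in SMA MNs. The level was 3.90-fold lower, a log2 ratio of -1.97 (-1.68 relative to the median gene), and 1377 background genes had a lower ratio. A pseudocount moves the ratio of such a low gene most of all, and Sall3 ranged from -1.97 to -1.36 over the alternatives. Its levels were at percentile 23.5 in control MNs and 9.96 in SMA MNs.

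**Figure D1:**
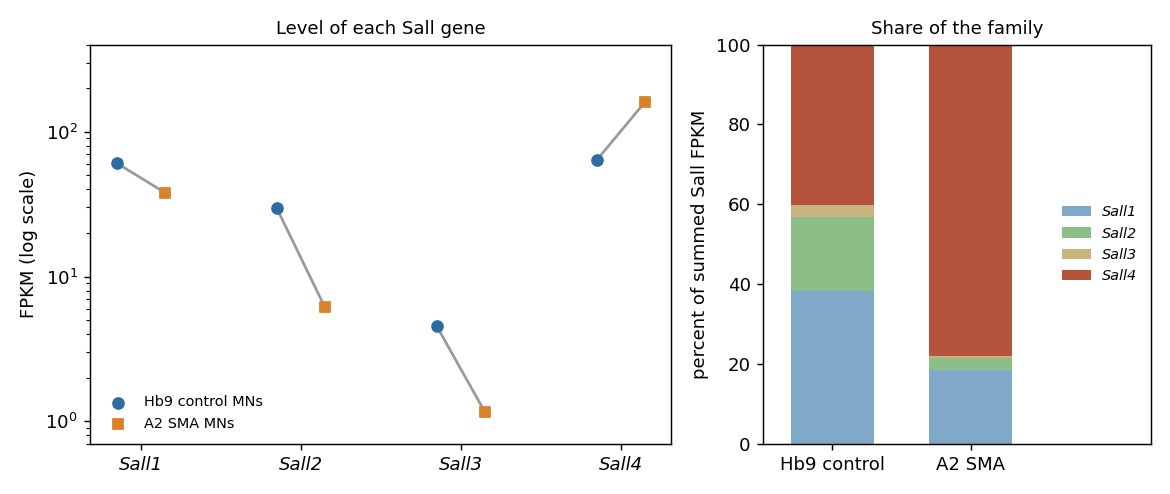
Left, the authors' pooled FPKM value of each Sall gene (log axis) in control MNs (circles) and SMA MNs (squares), 1 value per genotype with no error. Right, the percent of the summed Sall FPKM that each gene made up: Sall4 made up 40.2% in control MNs and 77.9% in SMA MNs.

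The order of the levels in control MNs was Sall4, Sall1, Sall2 and Sall3, and it was the same in SMA MNs. When both rows named Sall1 were summed, Sall1 made up 40.7% of the family in control MNs and Sall4 38.6%, so this pair changed places there. Which neighbours in that order differ beyond the spread between samples cannot be said from 1 value per genotype. In control MNs the leading pair was nearly level, with a Sall4 to Sall1 ratio of 1.05 between the rows with the highest FPKM. In SMA MNs that ratio was 4.21. The distance between Sall4 and Sall2 was wider still, 2.16 in control MNs and 26.0 in SMA MNs. Sall2 and Sall3, in contrast, kept similar proportions, with a Sall2 to Sall3 ratio of 6.52 in control MNs and 5.29 in SMA MNs. These ratios within a genotype do not depend on how the genotypes are scaled.

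The summed level of the family was 159 FPKM in control MNs and 205 FPKM in SMA MNs. Sall4 made up 40.2% of it in the control cells and 77.9% in the SMA cells. Sall1 made up 38.3% and 18.5%, Sall2 18.6% and 2.99%, and Sall3 2.86% and 0.566%. The 3 genes other than Sall4 summed to 94.8 FPKM in control MNs and 45.3 FPKM in SMA MNs. The family total was therefore higher in the SMA cells through Sall4, while the rest of the family was lower.

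**Figure D2:**
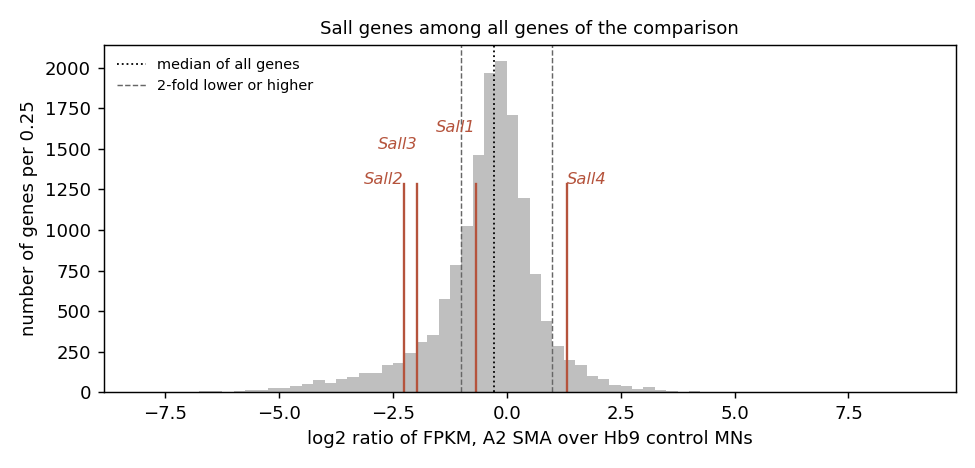
Number of genes in bins of the log2 ratio of FPKM in A2 SMA over control MNs, for the 14926 background genes. The dotted line is their median (-0.29), dashed lines mark 2-fold, and the 4 solid lines mark Sall2 (-2.27), Sall3 (-1.97), Sall1 (-0.68) and Sall4 (1.32).

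Cuffdiff gave the rows of Sall1 and Sall4 the status FAIL, which means that its own test could not be computed for them, and those of Sall2 and Sall3 the status OK. The FPKM values are listed in either case. Some of the other genes named here also have the status FAIL. Of the background genes, 2086 (14.0%) had the status FAIL, with a median log2 ratio of -0.22, and that of the 12840 genes with the status OK was -0.30. Among the genes with the status FAIL, 5.66% were at least 2-fold higher and 15.96% at least 2-fold lower in SMA MNs, so both shares were below those of all genes.

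The pluripotency network around Sall4 was compared next. Its list holds 25 genes, of which 25 passed the filter, 22 (88%) were at least 2-fold higher in SMA MNs, beside 6.83% of all genes, and 0 at least 2-fold lower, beside 22.4%. The median log2 ratio was 2.27, against -0.29 in the background. Their summed level was 783 FPKM in control MNs and 3219.6 FPKM in SMA MNs. Pou5f1, which encodes Oct4, was the most abundant in SMA MNs at 98.3 and 775 FPKM (log2 ratio 2.98). Utf1, a chromatin factor of undifferentiated cells, had 59.8 and 357 FPKM, and Fbxo15, an F-box protein under Oct4 and Sox2 control, had 66.7 and 280.2 FPKM. The highest ratio was that of Nr0b1, a nuclear receptor of embryonic stem cells, with 3.17 and 51.6 FPKM (4.02). Sox2, which is shared by stem cells and neural progenitors, had the lowest, with 179 and 197 FPKM (0.14), and was the most abundant in control MNs.

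Sall4 had the direction of this list, with a smaller difference than most of its genes, since 19 of the 25 genes had a higher ratio than Sall4. In control MNs it was among the more abundant genes of the network, with 4 of the 25 at a higher FPKM. In SMA MNs 7 of the 25 were at a higher FPKM. The levels of these stem cell genes were higher in SMA MNs, as that of Sall4 was, and their part in its difference was not tested.

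Genes of the trophectoderm and primitive endoderm, lineages beside the epiblast in which Sall4 also acts, were past 2-fold in both directions. Of 15 listed genes, 14 passed the filter, 4 (28.6%) were at least 2-fold higher in SMA MNs and 3 (21.4%) at least 2-fold lower, beside 6.83% and 22.4% of all genes. Their median log2 ratio was -0.03, which becomes 0.26 relative to the median gene, 0.13 without rows shared by several symbols and -0.59 with a filter of 5 FPKM. Their summed level was 204 FPKM in control MNs and 243 FPKM in SMA MNs. Tfap2c, a factor of trophectoderm and germ cells, was the most abundant in the SMA cells and had the highest ratio, with 11.1 and 68.0 FPKM (2.61). Foxa2, of endoderm and floor plate, had 55.9 and 18.2 FPKM, and the keratin gene Krt18 had 26.3 and 53.3 FPKM. Gata3, on a row shared with another symbol, had the lowest ratio (15.8 and 4.86 FPKM, -1.70). Cdx2, which defines trophectoderm, stayed below the filter at 0.249 and 0.514 FPKM. The part of these genes in the Sall values was not tested.

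Limb, heart and germline genes linked to Sall4 were mostly low. Of 13 listed, 10 passed the filter, with 1 at least 2-fold higher in SMA MNs, 2 at least 2-fold lower and a median log2 ratio of -0.65. These shares (10% and 20%) stood beside 6.83% and 22.4% of all genes, and with the median gene at 0, 3 of the 10 were at least 2-fold higher, beside 10.4% of all genes. With a filter of 5 FPKM the median was 0.48, of the opposite sign. Tbx5, Fgf8 and Gata5, which act in the developing limb or heart, did not pass. The list summed to 119.7 FPKM in control MNs and 153 FPKM in SMA MNs. Kit, a receptor of germ cells, was the most abundant at 41.3 and 72.5 FPKM. The germ cell helicase gene Ddx4 had 11.8 and 20.9 FPKM. The highest ratio was that of Prdm1, of germ cell precursors, at 1.36 and 6.74 FPKM (2.31), and the lowest that of Zbtb16, which encodes the zinc finger protein Plzf, at 11.3 and 1.83 FPKM (-2.63).

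The NuRD complex, the corepressor that Sall proteins bring to DNA, was examined subunit by subunit. All 15 listed genes passed the filter, 1 was at least 2-fold higher in SMA MNs, 2 were at least 2-fold lower and 12 lay within 2-fold. These shares, 6.67% and 13.3%, stood beside 6.83% and 22.4% in the background. The median log2 ratio of the list was -0.35, or -0.06 relative to the median gene, and its summed level was 1636 FPKM in control MNs and 1421 FPKM in SMA MNs.

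Among the helicases of the complex, Chd4 was the most abundant subunit of all in control MNs, with 315 FPKM there and 205 FPKM in SMA MNs (log2 ratio -0.62). Chd3 had 117 and 34.6 FPKM (-1.75), the lowest ratio of the list. Chd5, a neuronal helicase, had 1.95 and 2.68 FPKM (0.46). Chd3 was thus the helicase that set the genotypes furthest apart, whereas Chd4 was the most abundant of them in both.

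The deacetylase Hdac2 had 209.8 FPKM in control MNs and 132 FPKM in SMA MNs (-0.67). Its paralog Hdac1 was lower in level, at 21.2 and 12.6 FPKM (-0.76). Of the histone-binding subunits, Rbbp4 had 188 and 225 FPKM (0.26) and Rbbp7 had 129 and 133 FPKM (0.05). Both deacetylases and both histone-binding subunits were within 2-fold.

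The Mta genes encode scaffolds of which a complex uses alternative forms. Mta1 had 164 and 111 FPKM (-0.56) and Mta2 had 101 and 79.1 FPKM (-0.35). Mta3 had 57.5 FPKM in control MNs and 158 FPKM in SMA MNs (1.46). Mta1 was the most abundant of the 3 in the control cells and Mta3 in the SMA cells. The rows of 7 of the 15 subunit genes, those of Mta1, Mta3 and Chd3 among them, have the status FAIL.

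The methyl-CpG-binding family is represented by Mbd3, with 179.6 FPKM in control MNs and 186 FPKM in SMA MNs (0.05), and Mbd2, with 56.6 and 42.1 FPKM (-0.43). Mbd3 is the form found in the NuRD complex of embryonic stem cells, and its level was nearly the same in both genotypes. Gatad2a had 54.5 and 67.8 FPKM (0.31), and Gatad2b, the other GATA-type zinc finger subunit, had 35.5 and 29.2 FPKM (-0.28). Cdk2ap1, a small subunit, had 5.91 and 2.43 FPKM (-1.28).

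In level, 8 of the 15 subunit genes lay above Sall4 in control MNs and 3 of the 15 in SMA MNs. For Sall2 the counts were 12 and 13 of 15. The ratios of Sall2 and Sall3 were below those of 15 of 15 subunit genes, and 1 of the 15, Mta3, had a ratio above that of Sall4. Sall2, Sall3 and Sall4 thus had ratios further from 0 than most genes of the complex. Sall1 had a ratio below those of 12 of the 15.

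Genes linked to Sall1 in kidney and sensory organ development, among them the Eya and Dach genes, were mostly lower in SMA MNs. Of 17 listed, 14 passed the filter, 8 were at least 2-fold lower and 0 at least 2-fold higher, with a median log2 ratio of -1.76, or -1.02 with a pseudocount of 1 FPKM. The share of lower genes was 57.1%, beside 22.4% of all genes, and that of higher genes 0%, beside 6.83%. Their summed level was 168 FPKM in control MNs and 110.1 FPKM in SMA MNs. Eya3, a phosphatase and coactivator, was the most abundant at 57.2 and 62.7 FPKM. Its paralog Eya2 had 25.3 and 5.52 FPKM. The corepressor gene Dach1 had the lowest ratio, with 19.6 and 1.13 FPKM (-4.12), and the homeobox gene Six4 the highest, with 8.48 and 15.04 FPKM (0.83). Of the 14 genes, 8 had a lower ratio than Sall1 and 6 a higher one. In control MNs 0 of the 14 exceeded Sall1 in FPKM, and in SMA MNs 1 did, Eya3. Six3, Six6 and Gdnf did not pass the filter.

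Cell cycle and apoptosis genes linked to Sall2 lay on both sides of 0. All 11 passed the filter, 2 were at least 2-fold higher in SMA MNs and 2 at least 2-fold lower (18.2% each, beside 6.83% and 22.4% of all genes), and the median log2 ratio was 0.24. By sign, 6 were higher and 5 lower, and with the median gene at 0, 3 were at least 2-fold higher and 1 at least 2-fold lower, beside 10.4% and 16.5% of all genes. The list summed to 749 FPKM in control MNs and 895 FPKM in SMA MNs. Bax, a mediator of apoptosis, was the most abundant in both genotypes at 173 and 265 FPKM (0.61), followed in SMA MNs by Trp53, which encodes p53, at 65.2 and 169.5 FPKM (1.38), and Mdm2, which encodes the ligase for p53, at 114 and 135 FPKM (0.24). Pmaip1, which encodes Noxa and is a target of Sall2, had the highest ratio, with 7.32 and 31.4 FPKM (2.10). Ccnd1, the cyclin D1 gene, had the lowest, with 93.8 and 36.8 FPKM (-1.35). Cdkn1a, the p21 gene and another known Sall2 target, was chosen after its values were seen and had 91.7 and 54.0 FPKM (-0.76). The ratio of Sall2 lay below those of 11 of these 11 genes.

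Neural progenitor genes, several of which are present in the cells that precede MNs, were lower in SMA MNs. Of 20 listed, 18 passed the filter, 17 (94.4%) were at least 2-fold lower, beside 22.4% of all genes, and 0 at least 2-fold higher, beside 6.83%, with a median log2 ratio of -3.31. Their summed level was 3015 FPKM in control MNs and 341 FPKM in SMA MNs. Vim, an intermediate filament, was the most abundant at 1436 and 178 FPKM. Fabp7, a lipid-binding protein of radial glia, had 553 and 5.52 FPKM, and the RNA-binding protein gene Msi1, on a row shared with another symbol, had 191 and 39.6 FPKM. Hes5, a target of Notch, had the lowest ratio, with 65.3 and 0.349 FPKM (-7.55). Pax6 had the highest, with 22.4 and 21.4 FPKM (-0.07). Dbx2 did not pass the filter and Sox1 was not analysed here.

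Sall2 and Sall3 lay in the direction of the neural lists, but most genes of those lists had lower ratios still. Of the 18 neural progenitor genes, 13 had a lower ratio than Sall2 and 15 a lower ratio than Sall3. Of the 17 MN markers, 12 had a lower ratio than Sall2 and 12 a lower ratio than Sall3. In SMA MNs 0 of the 17 MN markers and 1 of the 18 neural progenitor genes exceeded Sall4 in FPKM, while in control MNs 7 and 8 did. Most of the neural genes were lower in SMA MNs, as were Sall1, Sall2 and Sall3 and 65.9% of all genes. The part of the neural genes in the Sall differences was not tested.

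**Figure D3:**
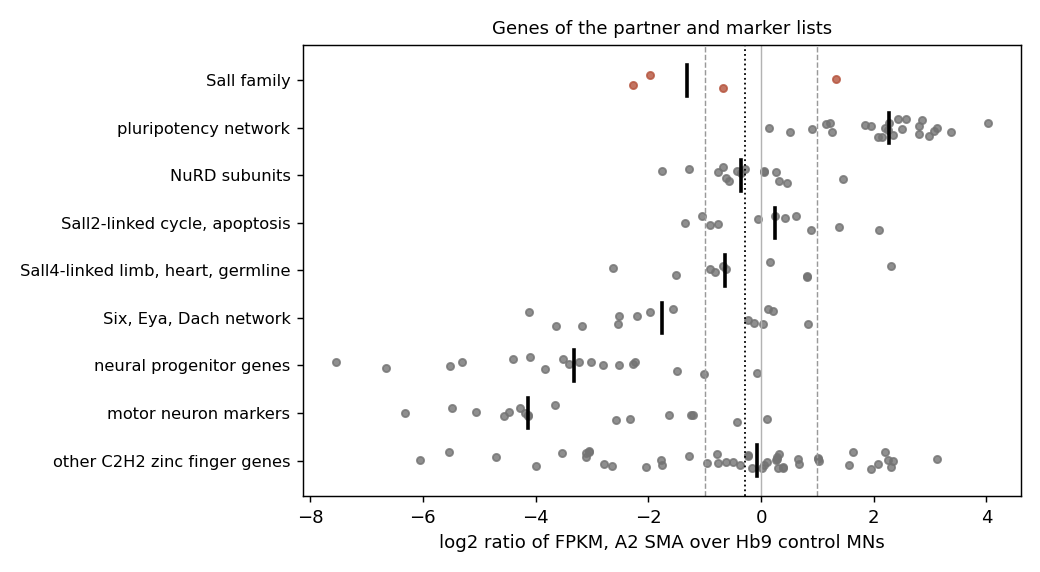
Log2 ratio of FPKM in A2 SMA over control MNs for each gene that passed the filter, by list, with Sall genes in red, other genes in grey and a black bar at each list's median. The dotted line is the background median (-0.29) and dashed lines mark 2-fold: pluripotency genes lie to the right (median 2.27), and neural progenitor genes (-3.31) and MN markers (-4.13) to the left.

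Other cells that a sort of differentiated mESC cultures can hold were looked for by their markers. Fibroblast genes, which mark feeder cells, passed the filter in 8 of 10 cases, 5 of them at least 2-fold lower and 1 at least 2-fold higher in SMA MNs, beside 22.4% and 6.83% of all genes, with a median log2 ratio of -1.09. With the median gene at 0, 2 were at least 2-fold lower, beside 16.5% of all genes, and with a pseudocount of 1 FPKM 3 were. The share of all genes with that pseudocount is not given here. A filter of 5 FPKM kept only Col1a1, Col1a2, Col3a1 and Pdgfrb. The 3 collagen genes among them were at least 2-fold lower, beside 20.0% of all genes at that filter. All 10 listed fibroblast genes summed to 70.7 FPKM in control MNs and 36.8 FPKM in SMA MNs. The most abundant were the collagen genes Col1a2 (20.1 and 8.93 FPKM), Col1a1 (18.9 and 9.41 FPKM) and Col3a1 (15.9 and 6.57 FPKM). Thy1, a surface protein that neurons also carry, had the highest ratio at 0.970 and 2.20 FPKM (1.18), and Postn, a matrix protein, the lowest at 1.88 and 0.326 FPKM (-2.53). S100a4 was listed at 0 FPKM in SMA MNs and Fap did not pass.

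Microglia and macrophage genes passed in 3 of 10 cases, 0 of them past 2-fold, beside 6.83% of all genes higher and 22.4% lower, with a median log2 ratio of 0.17 and sums of 65.2 FPKM in control MNs and 77.7 FPKM in SMA MNs. Cd68, a lysosomal protein that many cell types make, had 16.6 and 23.0 FPKM and the highest ratio (0.47), and Tmem119, at 2.49 and 2.54 FPKM, the lowest (0.03). The defining gene Cx3cr1 was listed at 0 and 0.00955 FPKM, and P2ry12 at 0.0454 and 0 FPKM. Csf1r, Aif1, Ptprc and Itgam did not pass the filter either. Spi1 was not analysed here.

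Mesoderm genes passed in 4 of 8 cases, with 1 at least 2-fold higher, 3 at least 2-fold lower, beside 6.83% and 22.4% of all genes, and a median log2 ratio of -1.44. They summed to 23.7 FPKM in control MNs and 38.0 FPKM in SMA MNs, so the sum and the median differ in direction. With a filter of 5 FPKM, which only Meox1 and Tcf15 passed, the median was 0.084 and 1 gene was at least 2-fold lower. At that filter 20.0% of all genes were. With a pseudocount of 1 FPKM the median was -0.69. Tcf15, of early mesoderm and of stem cells that prepare to differentiate, was the most abundant in SMA MNs at 10.1 and 32.1 FPKM (1.67). The somite gene Meox1 had 10.1 and 3.58 FPKM (-1.50), and Tbx6 had 1.69 and 0.611 FPKM. The defining genes T, Mixl1, Msgn1 and Mesp1 did not pass the filter. The part of fibroblast, microglia and mesoderm genes in the Sall values was not tested.

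Other families of C2H2 zinc finger genes gave a comparison by protein type. Of 58 listed genes 48 passed the filter, 12 (25%) were at least 2-fold higher in SMA MNs and 15 (31.2%) at least 2-fold lower, beside 6.83% and 22.4% of all genes. With a filter of 5 FPKM, 11 were at least 2-fold higher and 9 at least 2-fold lower. Fewer than the 48 genes pass that filter, at which 4.81% of all genes were higher and 20.0% lower. Of the 12, 5 are also on the pluripotency list. The median log2 ratio was -0.07, or 0.22 relative to the median gene, 0.28 with a filter of 5 FPKM and 0.012 without rows shared by several symbols. Klf2, a stem cell factor, was the most abundant in SMA MNs at 21.6 and 109 FPKM. Glis2, the most abundant in control MNs, had 99.2 and 58.7 FPKM, and Sp1, a general activator, had 70.2 and 92.4 FPKM. The lowest ratio was that of Prdm8 (14.1 and 0.213 FPKM, -6.05).

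Sall4 was among the most abundant genes of this kind. In control MNs 2 of the 48 genes, Glis2 and Sp1, exceeded Sall4 in FPKM, and in SMA MNs 0 did. A higher ratio than that of Sall4 was found for 9 of the 48, and a lower ratio than that of Sall2 for 11. By family, genes at least 2-fold higher included 5 of the 13 Klf genes and 2 of the 3 Gli genes that passed, beside 6.83% of all genes. These counts were 4 and 0 with a pseudocount of 1 FPKM, for which no share of all genes is given here. Genes at least 2-fold lower included 3 of 3 Tshz genes, 2 of 2 in each of the Zeb, Bcl11 and Insm families, and 2 of 3 Ikzf genes, beside 22.4% of all genes. With that pseudocount 1 Ikzf gene was lower. Genes past 2-fold in both directions were found, as among the Sall genes, among Klf genes (5 higher, 1 lower) and Prdm genes (2 higher, 2 lower).

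The values of chromosomal neighbours are given next, and a difference shared along a region was not tested. The 2 nearest genes on each side that passed the filter were taken, with ties kept, and some of them lie far from the Sall gene. Of all genes, 6.83% were at least 2-fold higher and 22.4% at least 2-fold lower, which is the background for the neighbours. Beside Sall4, Atp9a (51.8 and 40.7 FPKM, -0.35), whose locus ends 5922 bp away, and Zfp64 (35.7 and 40.1 FPKM, 0.17), 125222 bp away, were within 2-fold. Nfatc2 had 2.52 and 4.76 FPKM (0.91), and the shared row of Gm14260 and Gm9873 had 5.33 and 3.83 FPKM (-0.48). None of these 4 rows reached the log2 ratio of Sall4.

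Paralogs of the same genes were nearest to Sall3 on one side. Nfatc1, a factor activated by calcineurin and 250569 bp away, had 9.45 and 1.77 FPKM (-2.41), and Atp9b, a membrane ATPase, had 22.6 and 14.8 FPKM (-0.61). On the other side, 1461191 bp or more away, Mbp, of myelin and of other transcripts from the same gene, had 18.0 and 10.3 FPKM (-0.80), and Zfp236 had 12.5 and 9.19 FPKM (-0.44). Nfatc1 was therefore the neighbour that was past 2-fold in the direction of Sall3.

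Tox genes were among the neighbours of both Sall1 and Sall2, at different distances. Tox3, the nearest on its side of Sall1 but 1176165 bp away, had 21.1 and 4.68 FPKM (-2.17) and Nkd1, an antagonist of Wnt signalling 432358 bp away on the other side, had 5.78 and 2.14 FPKM (-1.43). Cyld (11.04 and 8.64 FPKM, -0.35), 275300 bp away, and Chd9 (10.2 and 8.81 FPKM, -0.21), 1757992 bp away, were within 2-fold. Both neighbours past 2-fold had lower ratios than Sall1 itself.

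On the near side of Sall2, 3 genes share a locus that ends 6043 bp away. Tox4 had 10.1 and 10.6 FPKM (0.07) and Mettl3, an RNA methyltransferase, had 74.4 and 63.6 FPKM (-0.23). Rab2b, a small GTPase, had 40.5 and 16.6 FPKM (-1.28). On the far side, 1906716 bp or more away, Dad1 had 95.3 and 86.3 FPKM (-0.14) and Abhd4 had 37.9 and 39.0 FPKM (0.04). Of these 5 genes 4 lay within 2-fold and Rab2b was at least 2-fold lower, as were 22.4% of all genes. None had a ratio as low as that of Sall2.

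Genes with the most similar pair of levels were found by the distance in the plane of the log2 FPKM of both genotypes, over 2 values per gene. For Sall4 they were Trp53 (distance 0.09), Tgif1 (0.13; 61.2 and 147 FPKM) and Mta3 (0.15). For Sall1 they were Fbxo11 (0.02; 61.3 and 38.1 FPKM), Sec63 (0.02; 60.2 and 37.4 FPKM) and Fam134c (0.03; 61.8 and 38.2 FPKM). For Sall2 they were Slc37a4 (0.08; 28.3 and 5.94 FPKM), Ank2 (0.11; 30.0 and 6.61 FPKM) and Mtap1a (0.12; 27.9 and 6.51 FPKM). Those of Sall3 were Pgcp (0.04; 4.48 and 1.19 FPKM), B630019K06Rik (0.05; 4.39 and 1.14 FPKM) and the zinc finger gene Ikzf4 (0.06; 4.61 and 1.12 FPKM). Trp53, Tgif1 and Mta3 have the status FAIL, as Sall4 does, and so do Fbxo11 and Ank2, beside 14.0% of all genes. With 2 values per gene, many genes lie close to any point of the plane.

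Promoter sequences were read from RefSeq (build GRCm38.p6, whose positions are not those of the table) as the 250 bases before to the 50 bases after each annotated start. In the set of promoters used here, Sall1 and Sall2 matched entries and Sall3 and Sall4 did not, so no promoter of Sall3 or Sall4 is shown. The table gives no value per start, and both rows named Sall1 have the same coordinates. Use of one start or another therefore cannot be read from it. Both starts of Sall2, on the minus strand of chromosome 14, are shown because they differ in base composition, beside the start of Sall1 on the minus strand of chromosome 8 that holds the most CG dinucleotides. Capitals mark each CG.
Sall2, chr14:52328621-52328920: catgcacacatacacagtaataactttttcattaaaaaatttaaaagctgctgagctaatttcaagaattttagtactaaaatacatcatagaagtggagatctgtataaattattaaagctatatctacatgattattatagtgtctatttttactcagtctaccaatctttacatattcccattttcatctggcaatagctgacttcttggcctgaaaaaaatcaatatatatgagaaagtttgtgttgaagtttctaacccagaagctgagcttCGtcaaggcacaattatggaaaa
Sall2, chr14:52316274-52316573: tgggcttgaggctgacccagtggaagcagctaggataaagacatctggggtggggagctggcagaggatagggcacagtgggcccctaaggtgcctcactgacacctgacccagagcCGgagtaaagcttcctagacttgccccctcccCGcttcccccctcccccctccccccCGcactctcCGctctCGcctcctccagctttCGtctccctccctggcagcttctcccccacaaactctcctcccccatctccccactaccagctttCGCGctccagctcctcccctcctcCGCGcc
Sall1, chr8:89042813-89043112: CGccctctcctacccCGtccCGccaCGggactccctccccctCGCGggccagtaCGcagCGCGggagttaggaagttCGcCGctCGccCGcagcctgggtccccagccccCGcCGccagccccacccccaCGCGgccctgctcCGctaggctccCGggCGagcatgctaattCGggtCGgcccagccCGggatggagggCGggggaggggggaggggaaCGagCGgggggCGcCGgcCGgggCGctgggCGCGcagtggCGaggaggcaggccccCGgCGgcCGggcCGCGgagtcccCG
The first Sall2 sequence has a GC content of 30.3%, at percentile 1.03 of 32851 promoters, and 1 CG. The second has 65% and 10 CG. The Sall1 sequence has 79.7% and 39 CG, at percentile 95.6 for CG, and the other 2 starts of Sall1 have 18 and 27. The median promoter had a GC content of 52.7% and 7 CG. Matches on either strand were then counted for the GC box GGGCGG (each match holds a CG), the TATA box TATAAA and the octamer ATGCAAAT, which were found in 35.7%, 13.6% and 1.74% of all promoters. The first Sall2 sequence holds 1 TATA box match, and the Sall1 sequence shown holds 1 GC box match. Another start of Sall1 (chr8:89043463-89043762) holds 4 GC box matches. The octamer had 0 matches in these 5 windows. A match describes the letters of the window and shows no binding.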

How the data were processed

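RNA of sorted MNs from the Hb9 control and the A2 SMA mESC lines, 3 samples per genotype, was sequenced and processed by the authors. Reads were checked with FastQC 0.10.1, trimmed with cutadapt, mapped with TopHat2 2.04 (as given in the submitters' processing notes) to NCBI m37 with its Ensembl annotation, assembled with Cufflinks and compared with Cuffdiff. The deposited table lists FPKM as 1 pooled value per genotype, normalised by the authors. Reads per gene are unknown, and nothing in the sources used states that strand was kept. The authors' comparison columns (log2 fold change, test statistic, p, q and significance) were not used. The status was read only to mark rows.

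The gene column was split at commas and the row with the highest FPKM was taken for each symbol. Genes needed 1 FPKM or more in one genotype or the other and a value above 0 in each, and a row shared by symbols counted once in the background. Log2 ratios had no pseudocount, and 2-fold was the limit for counts. The summed level of a list also includes its genes with a value that did not pass the filter. No test was computed, since the values used are pooled. Python 3.11.15, numpy 2.4.6, pandas 2.3.3 and matplotlib 3.10.9 were used. Of the steps, only the 2-fold calls were tested on simulated data, with changes set in advance. Genes named are the Sall genes, Smn1, Mnx1, the 2 neighbours on each side, the 3 nearest in level, NuRD subunits and, in each list, the 3 with the highest FPKM and the highest and lowest ratio. Others were chosen after their values were seen, and some genes that this rule takes are not reported here. The members and the 12 lists were chosen with earlier results of these data known. Alternatives were pseudocounts of 0.1 and 1 FPKM, scaling by Gusb, Pgk1 and Rpl13a, by the upper quartile or by the median gene, summing the rows of a symbol, FPKM + 1 in the shares, filters of 5 FPKM or none, leaving out FAIL or shared rows, all rows of the table, and a 4-fold limit.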

Additional observations from a re-analysis of the deposited data

How the results depend on the processing

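No paired analysis was possible because the labels share replicate numbers but the table gives 1 pooled value per genotype, and no sample could be left out for the same reason. Of 220 alternative values, 180 kept their direction and side of 2-fold or, for counts and shares, stayed within 1.5 times. This held for 24 of 24 ratios of Sall genes, which ranged from -0.68 to -0.39 for Sall1, -2.27 to -1.98 for Sall2, -1.97 to -1.36 for Sall3 and 1.31 to 1.61 for Sall4. The median gene lay at -0.29, the upper quartile shift was -0.29 and that of the 3 reference genes -0.14. The reads behind single genes are unknown, which limits the low values most.

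With FPKM + 1, the share of Sall3 in SMA MNs was 1.03%. With a 4-fold limit, 1.80% of all genes were higher and 8.88% lower. With the median gene at 0, 10.4% were higher.

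With the 4-fold limit, 0 NuRD genes were higher and 0 lower, 1 trophectoderm or primitive endoderm gene was higher and 0 lower, and 1 gene linked to Sall2 was higher and 0 lower. Likewise 1 gene linked to Sall4 was lower, 6 other C2H2 genes were higher, 0 fibroblast genes were higher and 1 lower, and 0 mesoderm genes were higher and 0 lower. With the median gene at 0, 1 NuRD gene was lower, 1 gene of the Eya and Dach network higher, 1 gene linked to Sall2 lower, 3 genes linked to Sall4 higher and 2 fibroblast genes lower, with a fibroblast median of -0.80.

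With a pseudocount of 1 FPKM, 1 gene linked to Sall4 was lower, 0 fibroblast genes were higher and 3 lower (median -0.88), and 1 mesoderm gene was lower (median -0.69). The shares of all genes with that pseudocount are not given here, so these counts have no background. With a filter of 5 FPKM, 1 gene linked to Sall4, 9 other C2H2 genes and 1 mesoderm gene were lower. Of the fibroblast genes 0 were higher and 3 lower. Fewer genes of these lists pass that filter, so a lower count need not be a lower share. At the same filter 4.81% of all genes were higher and 20.0% lower. The medians of mesoderm genes (0.084), genes linked to Sall4 (0.48) and other C2H2 genes (0.28) then changed sign, with fewer genes past that filter. With the median gene at 0, the medians of trophectoderm and primitive endoderm genes (0.26) and of other C2H2 genes (0.22) changed sign, and without rows of several symbols they were 0.13 and 0.012, again with a changed sign.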
